A study of Mus musculus with 14 samples.

Results

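The 8 genes described here belong to the 2 transmitter systems that act on islet cells through GABA and acetylcholine: the GABA-synthesising enzymes Gad1 and Gad2, the GABA receptor subunits Gabra4, Gabbr1 and Gabbr2, and the nicotinic acetylcholine receptor subunits Chrna3, Chrna5 and Chrnb4. They were chosen by name, as the probe sets annotated with exactly 1 of these gene symbols, out of 18820 genes measured in mouse pancreatic islets. Where a gene has several probe sets the brightest was to be used, but each of the 8 had 1, so signal decided none of the choices. Their names were picked with earlier results of these data known, so counts among them describe these arrays and are no independent evidence.

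Islet RNA of mice was hybridised to 14 expression arrays that cover whole transcripts. The titles number the arrays as replicates of their group and do not say whether an array holds the RNA of 1 mouse. The groups were wild-type C57BL/6 mice (WT) and mice on the same background that lacked Toll-like receptors 2 and 4 (Tlr2/Tlr4 double knockout, DKO). All mice ate a high-fat diet (60% fat) from 6 weeks of age, for 5 weeks (4 WT and 2 DKO arrays) or for 7 months (4 WT and 4 DKO arrays). No group here ate a control diet, and mice of the later time were also older, so time on the diet and age cannot be told apart. Values are log2 signals made by the authors with RMA, a method that corrects background, normalizes between arrays and summarises the probes of a set. Signals of different probe sets depend on their probes, so levels were compared between arrays and never between genes. In whole islets, fewer cells of a type and less RNA per cell cannot be told apart.

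GABA is made from glutamate by glutamate decarboxylase, and beta cells, the insulin cells of the islet, are known to make and release it. It opens chloride channels of the GABA-A type, built from alpha, beta and other subunits, and it activates the GABA-B receptor, a G protein-coupled pair in which GABBR1 binds GABA and GABBR2 couples to inhibitory G proteins. Nicotinic receptors are cation channels opened by acetylcholine, and the alpha and beta subunits encoded by Chrna3 and Chrnb4 form the receptor of autonomic ganglia, which Chrna5 can join as an accessory subunit.

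The main differences ran with time on the diet. Gabra4 was 3.88-fold higher at 7 months than at 5 weeks in WT islets and 3.47-fold higher in DKO islets. Chrna3 was 3.58-fold lower at 7 months in WT and 3.80-fold lower in DKO islets. Gabbr2 rose 1.47-fold over time in WT islets. Between genotypes, Gad1 fell 2.01-fold in DKO islets at 7 months, a call that most alternatives did not keep, and Chrna3 and Chrnb4 had lower means in DKO islets at both times without passing the test.

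Array medians lay between 3.89 and 3.98, and the Pearson correlation of 2 arrays was 0.980 to 0.989 in the same group and 0.965 to 0.985 in different groups. The deleted gene Tlr2 fell in DKO islets by 1.66 ± 0.12 log2 units (SE) at 5 weeks and by 1.06 ± 0.098 units at 7 months (limma adjusted p = 9.71e-06 and 1.61e-05), whereas Tlr4 differed by 0.35 ± 0.20 and 0.31 ± 0.16 and did not pass (adjusted p = 0.506 and 0.331). The Tlr4 mean was the higher one in DKO islets, 3.21 against 2.86 and 3.30 against 3.00, and it lay below the array medians in WT islets too, so this signal could not show the deletion. No source here tells if the Tlr2 or Tlr4 probes fall inside the deletion. The tissue label was borne out by the 8 beta cell markers, whose mean lay between 10.25 and 10.60 in the arrays. Acinar cell markers, digestive enzyme genes of the exocrine pancreas, were also present, with means from 5.40 in WT replicate 4 at 7 months to 9.19 in DKO replicate 1 at 5 weeks.

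**Figure D1:**
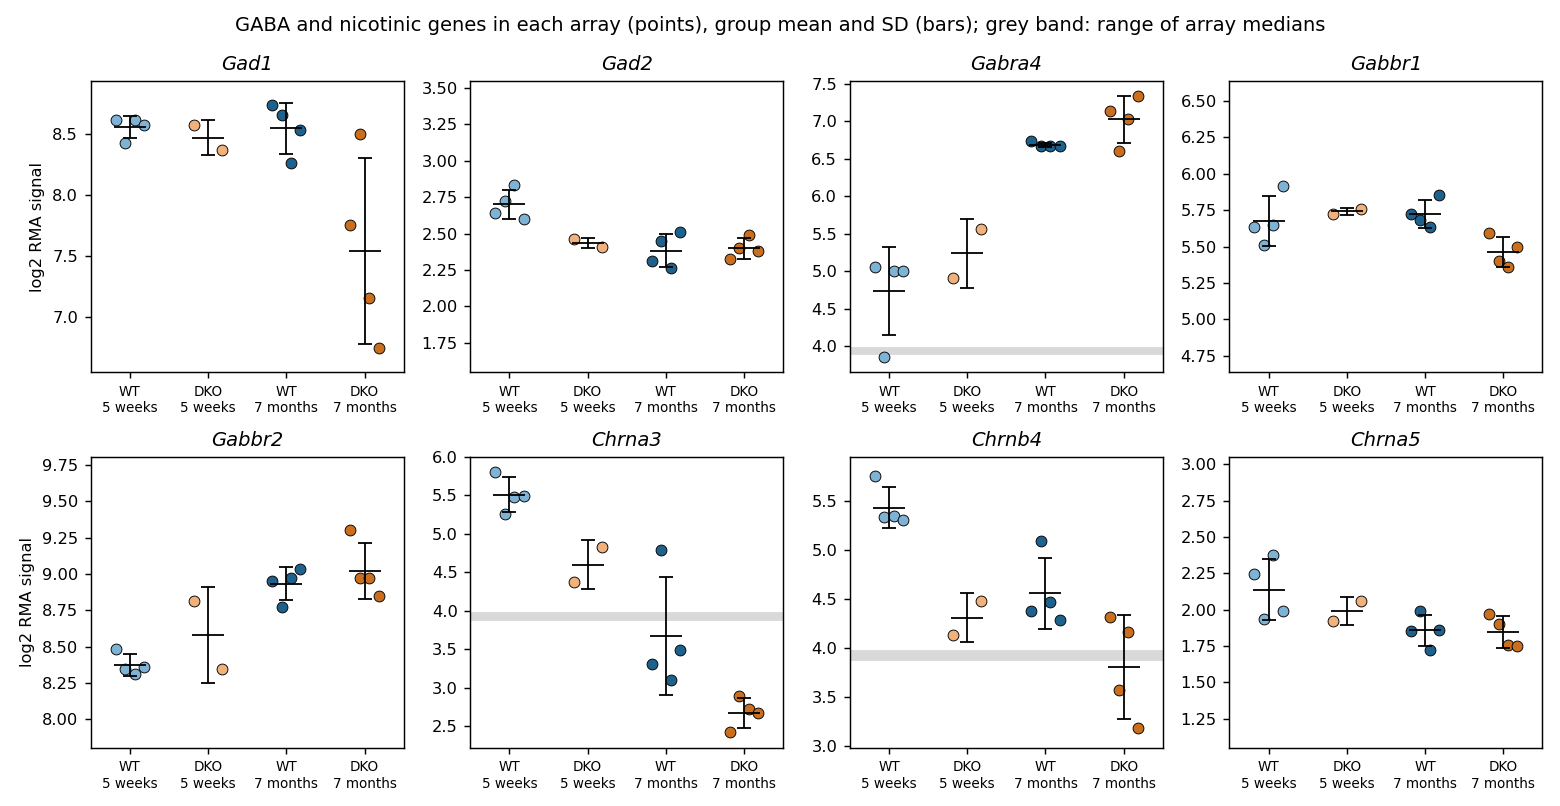
Log2 RMA signal (vertical axes) of the 8 genes in each of the 14 arrays (points) by genotype and time on the diet (horizontal axes), with the group mean and SD as bars and the range of the array medians, 3.89 to 3.98, as a grey band where it falls in the panel. Each panel has its own vertical range of at least 2 log2 units. Gabra4 is higher and Chrna3 lower at 7 months in both genotypes, and Gad1 spreads from 6.75 to 8.50 in DKO islets at 7 months.

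Gad1 encodes the glutamate decarboxylase isoform that makes most of the GABA in resting neurons. Its signal was 8.61, 8.43, 8.61 and 8.57 in the 4 WT arrays at 5 weeks and 8.57 and 8.37 in the DKO arrays of that time. At 7 months it was 8.73, 8.66, 8.26 and 8.53 in WT and 7.75, 8.50, 7.16 and 6.75 in DKO. All arrays but 3 thus lay between 8.26 and 8.73, and the 3 low ones were DKO replicates 1, 3 and 4 at 7 months. DKO replicate 2 lay inside the WT range, so the genotypes overlapped. The group means at 7 months were 8.55 ± 0.21 (SD, n = 4) in WT and 7.54 ± 0.76 (n = 4) in DKO, a difference of -1.0 ± 0.26 (SE) that passed narrowly (limma adjusted p = 0.0422 over all genes). At 5 weeks the difference was -0.085 ± 0.32 (95% interval -0.77 to 0.60, adjusted p = 0.957). Over time Gad1 changed by -0.010 ± 0.26 in WT (adjusted p = 0.992) and by -0.93 ± 0.32 in DKO, which did not pass (adjusted p = 0.0985). The order of the means, WT at 5 weeks, WT at 7 months, DKO at 5 weeks and DKO at 7 months, had overlapping ranges at every step.

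The Gad1 call at 7 months was lost under 18 of 23 alternatives, with adjusted p from 0.000649 to 0.132 over all of them. Of the arrays left out in turn, only DKO replicate 2 at 7 months left it past the threshold (adjusted p = 0.000649). That was not particular to Gad1: over all genes 1681 passed between genotypes at 7 months without that array, against 887 with it. Without each of the other 13 arrays the adjusted p lay between 0.0527 and 0.129. The mean of the beta cell markers was 10.60 in DKO replicate 2 at 7 months and 10.25 to 10.29 in the other DKO arrays of that time. It was 10.51 to 10.57 in WT. Among the DKO arrays of 7 months Mafa, Slc2a2, Ucn3 and Slc30a8 were highest in replicate 2, as Gad1 was. Pdx1 and Nkx6-1 were highest in replicate 4, where Gad1 was lowest. Ins2 was 11.91 in each of these arrays, and G6pc2 was lowest in replicate 2, at 12.30. Of the 8 markers 0 passed at 7 months in limma and 3 had an unadjusted p below 0.05. The part of beta cells in the Gad1 difference was not tested. The genes whose signal followed Gad1 most closely over the 14 arrays were Cyp4f39 (Pearson r = 0.973), Dennd4c (0.971) and Tnr (0.969). Here and below, placeholder gene symbols were passed over, and r takes in the differences between the groups.

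Gad2 encodes the other isoform of the enzyme, bound to vesicle membranes and known as an autoantigen of type 1 diabetes in humans. Its probe set lay below the array's own median in 14 of 14 arrays. The signal was 2.60 to 2.83 in WT and 2.41 and 2.46 in DKO at 5 weeks, and 2.26 to 2.51 in WT and 2.32 to 2.49 in DKO at 7 months. At 5 weeks both DKO arrays lay below all WT arrays, with a difference of -0.27 ± 0.10 that did not pass (limma adjusted p = 0.288), and in WT the 7-month arrays lay below the 5-week arrays by -0.32 ± 0.082 (adjusted p = 0.0622). At 7 months the genotypes differed by 0.015 ± 0.082 (95% interval -0.16 to 0.19), and over time DKO islets differed by -0.037 ± 0.10. So dim a signal limits what this probe set can show. The nearest genes in pattern, Pld5 (r = 0.878), Slc9b2 (0.876) and Odf1 (0.855), were below the array median in 14 of 14 arrays as well.

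Gabra4 encodes an alpha subunit of GABA-A receptors, known in the brain mainly from receptors outside synapses. It was 5.06, 3.85, 5.01 and 5.00 in WT and 4.91 and 5.56 in DKO islets at 5 weeks. At 7 months it was 6.73, 6.67, 6.67 and 6.68 in WT and 7.15, 6.60, 7.03 and 7.34 in DKO islets. All 8 arrays of 7 months lay above all 6 arrays of 5 weeks, whereas the genotypes overlapped at both times. WT islets rose from 4.73 ± 0.59 (SD, n = 4) to 6.69 ± 0.031 (n = 4), by 1.96 ± 0.24 (SE, limma adjusted p = 0.000471). DKO islets rose from 5.24 ± 0.46 (n = 2) to 7.03 ± 0.31 (n = 4), by 1.79 ± 0.29 (adjusted p = 0.00183). Without WT replicate 2 at 5 weeks, the lowest array, the rise in WT was 1.66 and still passed. Without DKO replicate 1 at 5 weeks the rise in DKO was 1.47 and no longer passed (adjusted p = 0.0589). Under the other alternatives both calls held.

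DKO islets had the higher Gabra4 mean at both times, by 0.51 ± 0.29 at 5 weeks (95% interval -0.12 to 1.13, limma adjusted p = 0.532) and by 0.34 ± 0.24 at 7 months (-0.16 to 0.85, adjusted p = 0.488), neither of which passed. Dropping WT replicate 2 of 5 weeks moved the 5-week difference to 0.21. It was 0.83 when DKO replicate 1 was dropped, 0.18 when the other DKO array was, and 0.30 with the acinar covariate. The rise did not differ measurably between genotypes (interaction -0.16 ± 0.38, 95% interval -0.97 to 0.64, adjusted p = 0.932). The order of the means ran from DKO and WT at 7 months to DKO and WT at 5 weeks, and only the step between the times had ranges apart. The genes most like it over the 14 arrays were the cation channel gene Trpc4 (r = 0.977), Ttc39c (0.962) and Dock3 (0.952). Acinar markers were low in WT replicate 2 at 5 weeks, with a mean of 6.29 against 8.19 to 8.37 in the other WT arrays of that time. With the acinar mean as a covariate the rise in WT stayed past the threshold.

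The promoter windows of Gabra4, of Gad1 and of the nicotinic genes Chrna3 and Chrnb4 are shown as examples of start regions. Chrnb4 passed in no comparison, and the window of Gabbr2, which passed over time in WT islets, is not printed. They come from RefSeq on GRCm38.p6, 250 bases before to 50 after a gene's start, printed 5′ to 3′ on the gene's strand, and all 8 genes matched in that table with 9 windows. Capitals mark the letters GGGCGG or, read from the other strand, CCGCCC, the core of a GC box, to which SP transcription factors bind.
Gabra4, chr5:71658259-71658558, minus strand: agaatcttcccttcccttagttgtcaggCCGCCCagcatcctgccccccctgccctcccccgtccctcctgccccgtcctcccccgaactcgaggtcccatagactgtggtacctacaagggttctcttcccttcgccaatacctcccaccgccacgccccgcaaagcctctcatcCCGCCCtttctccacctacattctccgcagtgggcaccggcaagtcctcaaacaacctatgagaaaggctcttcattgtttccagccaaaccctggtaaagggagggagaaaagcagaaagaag
Gad1, chr2:70561879-70562178, plus strand: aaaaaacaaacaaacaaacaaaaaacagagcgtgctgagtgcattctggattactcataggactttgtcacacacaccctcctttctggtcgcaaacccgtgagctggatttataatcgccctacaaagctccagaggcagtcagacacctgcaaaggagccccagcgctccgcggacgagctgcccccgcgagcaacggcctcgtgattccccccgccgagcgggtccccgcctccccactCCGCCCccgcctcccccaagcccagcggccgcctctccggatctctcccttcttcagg
Chrna3, chr9:55026513-55026812, minus strand: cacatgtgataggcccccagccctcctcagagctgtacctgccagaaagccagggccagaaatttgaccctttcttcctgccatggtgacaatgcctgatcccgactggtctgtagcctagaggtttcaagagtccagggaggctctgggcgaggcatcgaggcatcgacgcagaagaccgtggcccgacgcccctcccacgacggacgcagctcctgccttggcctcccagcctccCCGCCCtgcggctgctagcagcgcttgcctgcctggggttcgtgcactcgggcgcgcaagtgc
Chrnb4, chr9:55048495-55048794, minus strand: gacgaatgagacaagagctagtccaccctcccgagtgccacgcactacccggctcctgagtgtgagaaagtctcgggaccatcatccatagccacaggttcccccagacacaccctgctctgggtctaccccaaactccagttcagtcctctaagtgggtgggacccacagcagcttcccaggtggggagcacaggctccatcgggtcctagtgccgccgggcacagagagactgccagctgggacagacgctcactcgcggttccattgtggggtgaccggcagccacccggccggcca

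The GC box letters occur 2 times in the Gabra4 window, 1 time in the Gad1 window and 1 time in the Chrna3 window, and they are not in this window of Chrnb4. Among the 32851 windows of this length that RefSeq gave, 35.7% hold them on either strand. The letters TATAAA, the core of a TATA box, were found on either strand in the Gad1 window and in none of the other 8 windows of these genes, and 13.6% of all windows hold them. CCAAT was found in the windows of Gad2 (2 times) and Gabra4 (1 time), against 37.4% of all windows, and the cAMP response element TGACGTCA in none of the 9, against 1.79%. No searched motif contains another. These are matches of letters, not binding sites.

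Gabbr1 and Gabbr2 encode the 2 partners of the GABA-B receptor. Gabbr2 was 8.48, 8.35, 8.31 and 8.36 in WT and 8.81 and 8.34 in DKO islets at 5 weeks. At 7 months it was 8.95, 8.77, 8.97 and 9.03 in WT and 9.30, 8.97, 8.97 and 8.85 in DKO islets. The 7-month arrays lay above the 5-week arrays within each genotype. The rise was 0.56 ± 0.11 in WT (1.47-fold, limma adjusted p = 0.0191, n = 4 and 4) and 0.44 ± 0.14 in DKO, which did not pass (adjusted p = 0.0702, n = 4 and 2). Without DKO replicate 1 at 5 weeks the rise in DKO was 0.68 and passed (adjusted p = 0.0441), and without DKO replicate 2 it was 0.21 (adjusted p = 0.493). It also passed under 3 other alternatives (adjusted p from 0.0332 to 0.0461). The interaction was -0.11 ± 0.18 (95% interval -0.50 to 0.27), so the rises were not shown to differ. The call in WT was lost, at adjusted p from 0.0556 to 0.0630, without WT replicate 2 or 3 at 5 weeks or WT replicate 1, 3 or 4 at 7 months, and at 0.0545 with the acinar mean as a covariate, while the size stayed between 0.52 and 0.61 throughout. The genotypes overlapped at both times, with differences of 0.20 ± 0.14 and 0.090 ± 0.11.

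Gabbr1 showed no such rise. It was 5.51 to 5.91 in WT and 5.72 and 5.76 in DKO islets at 5 weeks, and 5.64 to 5.86 in WT and 5.36 to 5.59 in DKO islets at 7 months. The 4 DKO arrays of 7 months lay below the WT arrays of 7 months and below the DKO arrays of 5 weeks. The differences, -0.26 ± 0.094 (limma adjusted p = 0.137) and -0.28 ± 0.11 (adjusted p = 0.17), did not pass. In WT the time difference was 0.048 ± 0.094, and between genotypes at 5 weeks it was 0.064 ± 0.11. Pattern neighbours were Tacc2 (r = 0.968), Aff2 (0.946) and Cdk14 (0.928) for Gabbr2, and Nup155 (0.863), Lrch2 (0.858) and Csnk2a2 (0.85) for Gabbr1.

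Chrna3 had the widest range of the 3 nicotinic genes. It was 5.80, 5.26, 5.48 and 5.50 in WT and 4.38 and 4.83 in DKO islets at 5 weeks. At 7 months it was 3.31, 4.80, 3.10 and 3.49 in WT and 2.42, 2.89, 2.72 and 2.67 in DKO islets. At each time all DKO arrays lay below all WT arrays, and within each genotype all 7-month arrays lay below all 5-week arrays. Chrna3 fell by 1.84 ± 0.28 on the log2 scale in WT (limma adjusted p = 0.00242, n = 4 and 4) and by 1.93 ± 0.34 in DKO islets (adjusted p = 0.00319, n = 4 and 2). Both calls held under all 23 alternatives, and the interaction was -0.089 ± 0.44 (95% interval -1.02 to 0.84). The means at 7 months, 3.67 ± 0.76 in WT and 2.67 ± 0.19 in DKO, lay below the array medians, so the sizes of these changes are not exact.

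The genotype differences of Chrna3 were -0.91 ± 0.34 at 5 weeks (95% interval -1.63 to -0.19, limma adjusted p = 0.275) and -1.0 ± 0.28 at 7 months (-1.59 to -0.41, adjusted p = 0.0536), and neither passed. The 7-month difference passed under 7 of 23 alternatives, with adjusted p from 0.0160 to 0.135. It rests in part on WT replicate 2 at 7 months, the highest array at 4.80, without which it was -0.62 with a smaller spread (adjusted p = 0.0454). That array also had the highest acinar marker mean of its group, 8.64 against 5.40 to 7.32. With the acinar covariate the difference was -1.31 and passed (adjusted p = 0.0160). The order of the means ran from WT to DKO at 5 weeks, then WT to DKO at 7 months, and only the middle step had overlapping ranges.

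Chrnb4 was 5.75, 5.34, 5.35 and 5.31 in WT and 4.13 and 4.49 in DKO islets at 5 weeks. At 7 months it was 4.39, 5.10, 4.48 and 4.29 in WT and 4.32, 3.57, 4.16 and 3.19 in DKO islets. The WT arrays of 5 weeks lay above all others, and the remaining groups overlapped with their neighbours in the order of the means. Its differences were -1.13 ± 0.28 between genotypes at 5 weeks (2.18-fold lower, limma adjusted p = 0.0776), -0.75 ± 0.23 at 7 months (adjusted p = 0.0796), -0.87 ± 0.23 over time in WT (adjusted p = 0.0654) and -0.50 ± 0.28 over time in DKO islets (adjusted p = 0.328). None of them passed, and the first and the third share the WT arrays of 5 weeks. The first passed with only the arrays compared in the model (adjusted p = 0.0228) and without DKO replicate 4 at 7 months (0.0342). The third passed under 6 alternatives, without WT replicate 2, DKO replicate 1 or DKO replicate 4 at 7 months among them (adjusted p from 0.0253 to 0.0458). The 7-month genotype difference passed without DKO replicate 1 at 7 months (0.0401). The DKO mean at 7 months, 3.81, lay below the array medians, so the sizes of the differences with that group are not exact.

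Chrna5 lay below the array median in 14 of 14 arrays, with 1.94 to 2.38 in WT and 1.92 and 2.06 in DKO islets at 5 weeks, and 1.73 to 1.99 in WT and 1.75 to 1.97 in DKO islets at 7 months. The groups overlapped throughout, and the largest of the 4 differences between groups was -0.28 ± 0.10 over time in WT (limma adjusted p = 0.216). Its nearest genes in pattern were Zfyve21 (r = 0.913), Dmd (0.856) and Hoxb1 (0.852). In RefSeq the 3 genes follow one another on chromosome 9 in the order Chrna5, Chrna3 and Chrnb4, and Chrna5 and Chrna3 overlap on opposite strands. Nearby Ireb2, an iron regulatory protein gene, and Hykk, a hydroxylysine kinase gene, did not pass in any comparison, with differences from -0.13 to 0.14 and from 0.055 to 0.41 in the 4 comparisons.

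**Figure D2:**
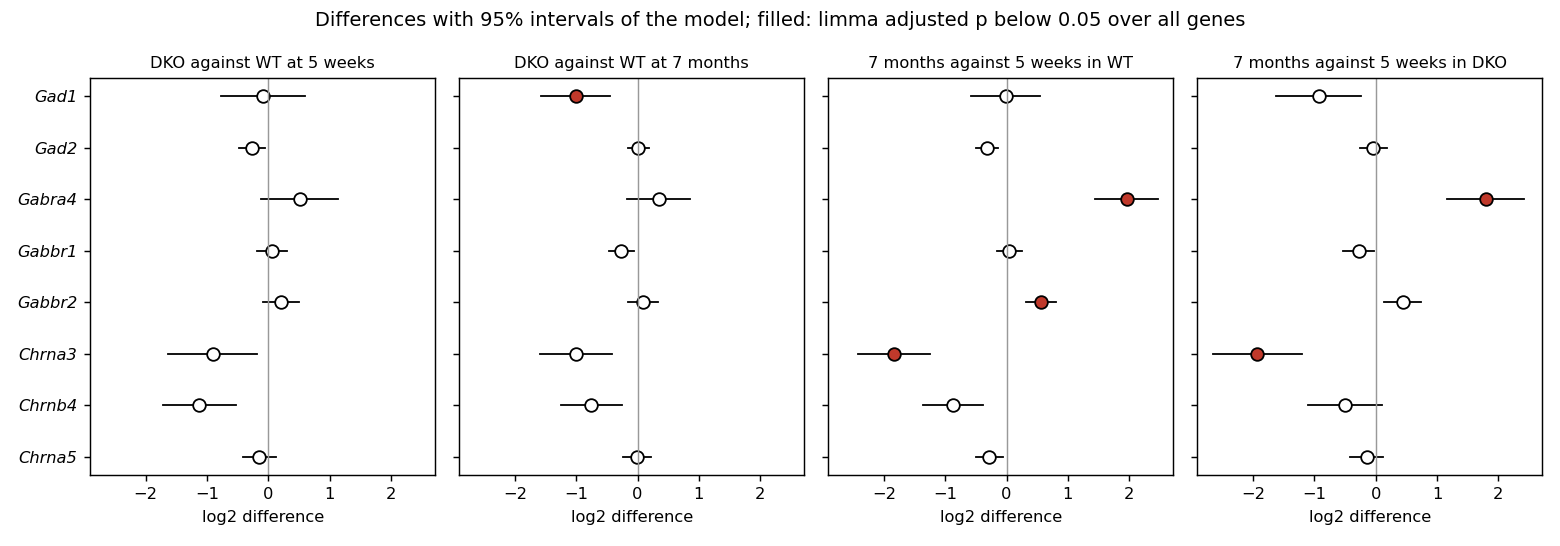
Log2 differences (horizontal axes) of the 8 genes in the 4 comparisons between pairs of groups, with 95% intervals of the limma model as lines and filled points where the adjusted p over all genes was below 0.05. Gabra4 lies at 1.96 and 1.79 and Chrna3 at -1.84 and -1.93 in the comparisons of time.

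Stmn2 and Prph, 2 of 6 neuronal markers measured, fell over time as Chrna3 did, and 0 of 6 passed between genotypes in limma, with 1 at an unadjusted p below 0.05 at 5 weeks and 3 at 7 months. The genes most like Chrna3 over the 14 arrays were Sncg, encoding gamma-synuclein of peripheral neurons (r = 0.985), Stmn2, encoding a microtubule regulator of growing axons (0.967), and the somatostatin receptor gene Sstr2 (0.965). For Chrnb4 they were Tmem74 (0.891), Ccdc184 (0.883) and Enpp3 (0.882). With the group means removed, r was 0.870, 0.690 and 0.697 with Chrna3 and 0.785, 0.403 and 0.289 with Chrnb4, in these orders. Tmem74 lay below the array median in 14 of 14 arrays. Stmn2, here also picked for its likeness to Chrna3, fell over time by 1.37 ± 0.19 in WT and by 1.46 ± 0.23 in DKO islets (limma adjusted p = 0.00111 and 0.00148). Prph, encoding the intermediate filament peripherin of peripheral neurons, fell by 0.88 ± 0.19 and 0.91 ± 0.23 (adjusted p = 0.0215 and 0.0247), with 7-month means of 3.78 and 3.28 below the array medians. The Stmn2 calls held under all 23 alternatives, and the Prph calls were lost under 3 in WT and 6 in DKO islets. Hand2, Elavl4, Th and Dbh did not pass in any comparison, and Dbh, which makes noradrenaline, lay below the array medians in all 4 groups. Of the 6 markers 5 had a lower mean at 7 months in each genotype. Dbh had a higher one, 2.28 against 2.19 in WT and 2.42 against 2.25 in DKO islets. The mean of the 6 was 5.33 to 5.51 in WT and 5.17 to 5.36 in DKO islets at 5 weeks, and 4.77 to 5.25 in WT and 4.57 to 4.92 in DKO islets at 7 months. Among the WT arrays of 7 months the highest Chrna3, Chrnb4, Stmn2 and Prph signals were all in replicate 2. The acinar marker mean was highest there too, at 8.64, as were other list means named below, so this was not particular to neuronal genes.

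The marker means of alpha cells, which make glucagon, and of delta cells, which make somatostatin, were also lower at 7 months in each genotype. The mean of 3 alpha cell markers was 8.04 to 8.25 in WT and 7.72 to 8.05 in DKO islets at 5 weeks, and 7.33 to 7.52 in WT and 6.41 to 6.63 in DKO islets at 7 months. That of 4 delta cell markers was 7.86 to 8.05, 7.75 to 7.88, 7.30 to 7.55 and 6.43 to 6.63 in the same order of groups. Of 5 markers of Schwann cells, the glia of peripheral nerves, Cdh19 fell over time by 1.08 ± 0.26 in WT and 1.23 ± 0.31 in DKO islets (limma adjusted p = 0.0389 and 0.0274). The call was lost under 11 of 22 alternatives in WT and 5 of 22 in DKO islets, where it was -0.64 without DKO replicate 2 at 5 weeks. Sox10, S100b, Gfap and Cdh19 lay below the array medians in all 4 groups. Other marker lists moved between genotypes at 7 months, where the Gad1 call and the Chrna3 and Chrnb4 differences lie. All 3 markers of PP and epsilon cells, the pancreatic polypeptide and ghrelin cells, fell in DKO islets, with list means of 9.46 to 10.32 in WT and 8.39 to 9.10 in DKO. Of 7 stellate cell and fibroblast markers 4 rose, with list means of 5.70 to 5.95 in WT and 6.52 to 7.06 in DKO. Of 6 macrophage markers 3 rose, Lyz2, Itgam and Mrc1, with list means of 4.37 to 4.61 in WT and 4.66 to 5.34 in DKO. Itgam and Mrc1 lay below the array medians in all 4 groups, and their calls were lost under 13 and 6 of 22 alternatives. Of 6 endothelial markers 1 rose and 1 fell. Over all genes 2.44% rose and 2.27% fell in this comparison. Among the WT arrays of 7 months replicate 2 had the highest means of the alpha, delta, PP and epsilon, Schwann, and stellate cell and fibroblast lists. The beta, macrophage and endothelial means were highest in other arrays. The part of any of these cells in the differences of Gad1, Chrna3, Chrnb4 and Gnai1 was not tested.

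**Figure D3:**
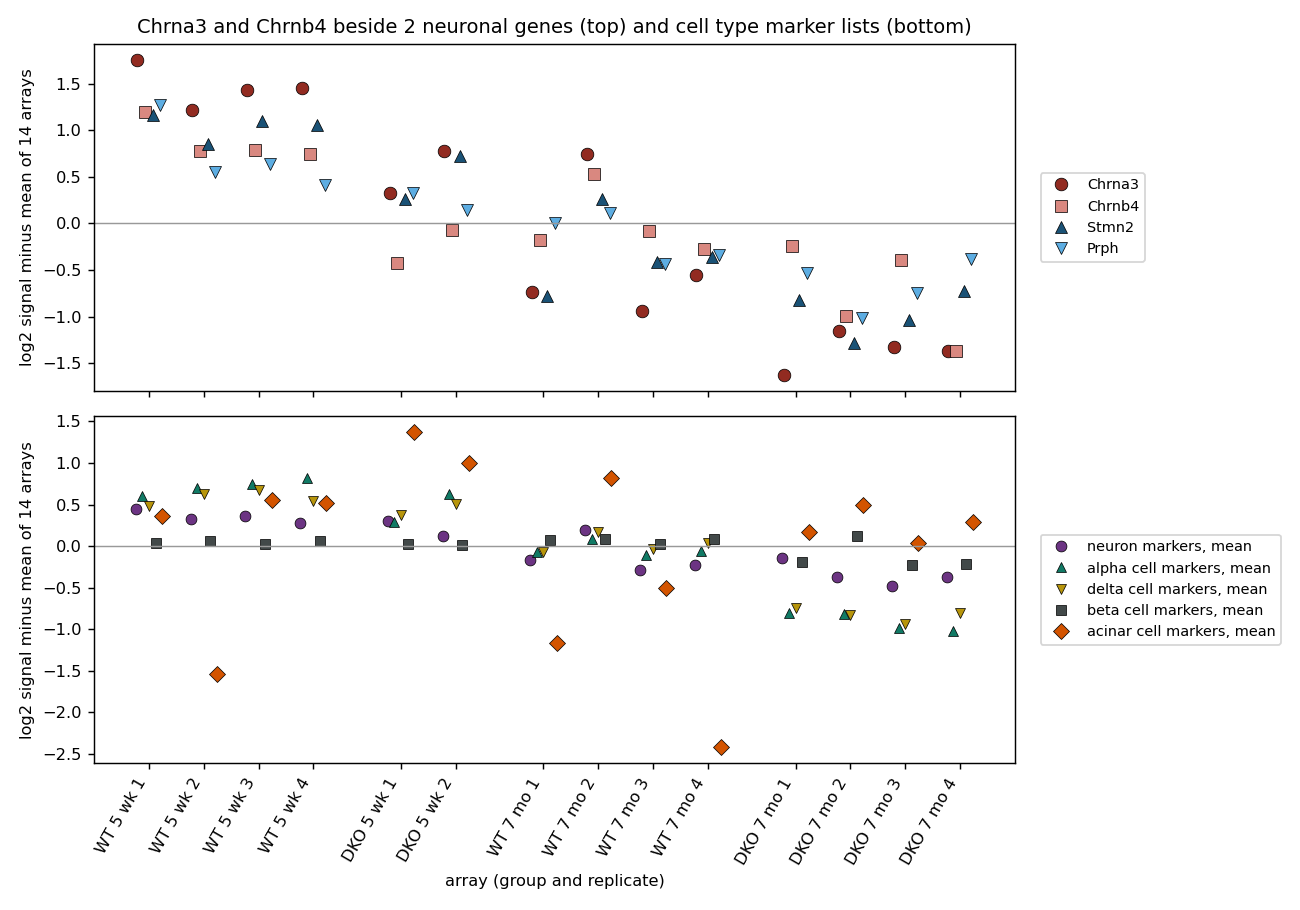
Log2 signal minus its mean over the 14 arrays (vertical axes) for Chrna3, Chrnb4, Stmn2 and Prph in the upper panel and for the means of 5 marker lists in the lower panel, in each array by group and replicate (horizontal axis). Stmn2 and Prph are the 2 of 6 neuronal markers that passed over time. Within each genotype Chrna3 and Stmn2 are lower in the 7-month arrays, as are the alpha and delta cell marker means, while the beta cell marker mean stays between 10.25 and 10.60 before centring.

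Counted together, 0 of the 8 genes passed between genotypes at 5 weeks, where 0.994% of all genes did (0.499% higher and 0.494% lower), and 3 had an unadjusted limma p below 0.05. At 7 months 1 of 8 passed, in the lower direction, where 4.71% of all genes did (2.44% higher and 2.27% lower). Over time 3 of 8 passed in WT, 2 higher and 1 lower, where 2.37% of all genes did (1.35% higher and 1.01% lower). In DKO islets 2 of 8 passed, 1 higher and 1 lower, where 7.57% did (4.86% higher and 2.7% lower). For the interaction 0 of 8 passed in limma, against 0.0903% of all genes (0.0266% higher and 0.0638% lower), and 3 had an unadjusted p below 0.05. The median difference of the 8 was -0.12, -0.14, -0.15, -0.21 and -0.10 in these 5 comparisons, where that of all genes lay between 0.0037 and 0.026. The groups did not overlap for 3 of 8 genes between genotypes at 5 weeks (21.6% of all genes), 2 of 8 at 7 months (10.6%), 5 of 8 over time in WT (11.6%) and 4 of 8 over time in DKO islets (26.7%).

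Of 97 further genes of the 2 systems, in 8 lists, 88 were measured, and 16 passed in at least 1 comparison. Between genotypes 1 of 88 passed at 5 weeks (0.994% of all genes) and 1 at 7 months (4.71%), both lower. Over time 5 of 88 passed in WT, 2 higher and 3 lower (2.37% of all genes). In DKO islets 14 passed, 8 higher and 6 lower (7.57%). For the interaction 0 of 88 passed (0.0903%), with 6 at an unadjusted limma p below 0.05. The shares of all genes by direction were those given for the 8 genes. Of the 21 calls 3 held under every alternative run, those of Gnai1 at 7 months and over time in DKO islets and of Slc18a3 over time in WT islets, and the other 18 were lost under 2 to 18 alternatives. Lost most often was Chrm3 between genotypes at 5 weeks (18 of 23). Next came the calls over time of Slc12a2 (17), Chrm3, Gnai3 and Ric3 (16 each), Gabrg3 (14 of 22) and Nlgn2 (13 of 23).

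**Figure D4:**
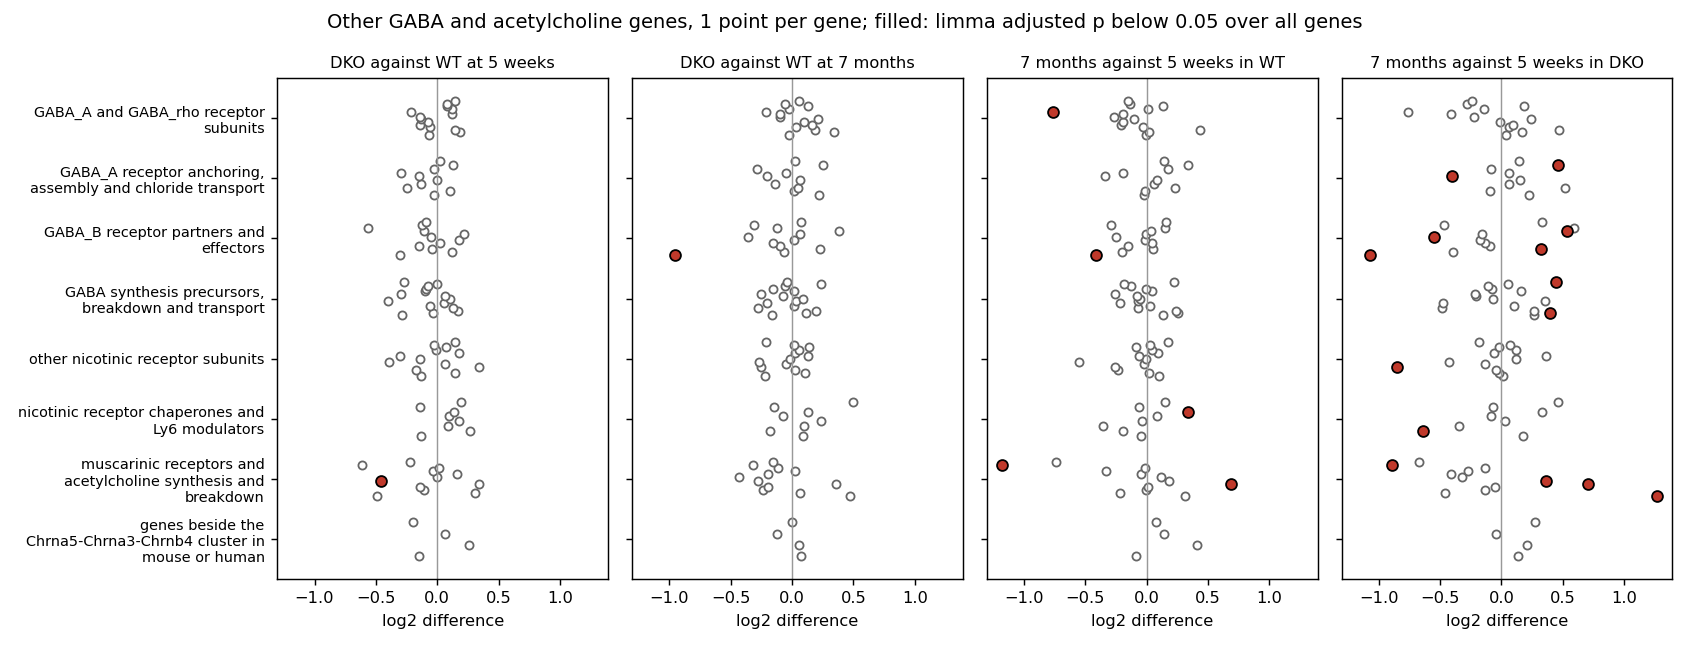
Log2 differences (horizontal axes) of the 88 other measured genes of the GABA and acetylcholine systems, 1 point per gene, by list (vertical axis) in 4 comparisons. Filled points passed at a limma adjusted p below 0.05 over all genes. Most of them are in the comparison of times in DKO islets, where 14 of 88 passed. That comparison also had the largest share of all genes past the threshold, 7.57%.

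Among the partners and effectors of the GABA-B receptor, Gnai1, which encodes an inhibitory G protein alpha subunit, was the clearest. It was 6.58 to 6.78 in WT and 6.34 and 6.44 in DKO islets at 5 weeks, and 6.13 to 6.44 in WT and 5.22 to 5.39 in DKO islets at 7 months. The DKO arrays of 7 months lay below all others. Gnai1 fell in DKO against WT islets at 7 months by 0.95 ± 0.085 (limma adjusted p = 1.1e-05), and over time by 0.42 ± 0.085 in WT (adjusted p = 0.0181) and 1.07 ± 0.10 in DKO (adjusted p = 3.83e-05), with an interaction of -0.65 ± 0.13 that did not pass (adjusted p = 0.0809). In DKO islets over time Gnai3, of the same G protein family, rose by 0.32 ± 0.094, Kctd12, an auxiliary subunit of the GABA-B receptor, rose by 0.53 ± 0.13, and Kcnj6, a potassium channel opened by G proteins, fell by 0.55 ± 0.13. The other 8 of 12 genes did not pass in any comparison.

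Of 14 measured subunit genes of GABA-A and rho receptors other than Gabra4, 1 passed, Gabrg3, a gamma subunit, which fell over time in WT by 0.77 ± 0.19 (limma adjusted p = 0.0444) and was at -0.76 ± 0.23 in DKO islets (adjusted p = 0.0565). Its 7-month means, 3.42 and 3.21, lay below the array medians. Of 10 genes for anchoring, assembly and chloride transport, Slc12a2, a chloride importer whose activity bears on whether GABA depolarises a cell, rose in DKO islets over time by 0.46 ± 0.13 (adjusted p = 0.0453), and Nlgn2, an adhesion protein of inhibitory synapses, fell by 0.40 ± 0.11 (adjusted p = 0.0417). Of 15 genes for GABA precursors, breakdown and transport, Aldh5a1, the enzyme of the last step of GABA breakdown, rose by 0.40 ± 0.11 (adjusted p = 0.0321) and the taurine transporter gene Slc6a6 by 0.44 ± 0.11 (adjusted p = 0.0272), again in DKO islets over time.

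Of 13 other nicotinic subunit genes 1 passed, Chrna4, which fell in DKO islets over time by 0.85 ± 0.23 (limma adjusted p = 0.0382) with group means of 3.75 and 2.90, both below the array medians. Of 8 chaperones and modulators of nicotinic receptors, Ric3, an assembly chaperone, rose in WT over time by 0.34 ± 0.082 (adjusted p = 0.0462), and Ly6h, a member of the Ly6 family, fell in DKO by 0.64 ± 0.14 (adjusted p = 0.0118), with means of 3.15 to 3.79 in the 4 groups, all below the array medians, so its size is not exact. Of 4 measured genes beside the nicotinic cluster in mouse or human 0 passed, with 1 at an unadjusted limma p below 0.05 in each comparison of 2 groups but that of genotypes at 7 months, and the smallest genotype p belonged to Morf4l1, at -0.19 ± 0.089 (adjusted p = 0.402), which in mouse lies elsewhere on chromosome 9.

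Of 12 genes for muscarinic receptors and for acetylcholine synthesis and breakdown, Slc18a3, the vesicular acetylcholine transporter, fell over time by 1.18 ± 0.17 in WT (limma adjusted p = 0.0022) and 0.89 ± 0.21 in DKO islets (adjusted p = 0.0201). Its signal was 4.11 to 4.51 in WT and 3.53 and 3.92 in DKO islets at 5 weeks, and 2.82 to 3.61 and 2.67 to 3.17 at 7 months, so the later values lay below the array medians. The DKO mean at 5 weeks, 3.72, lay below them too. Chrm2, a muscarinic receptor gene, rose by 0.69 ± 0.15 in WT (adjusted p = 0.0284) and 0.70 ± 0.19 in DKO islets (adjusted p = 0.0339). Ache, which breaks acetylcholine down, rose in DKO islets by 1.27 ± 0.28 (adjusted p = 0.0127), a call lost under 3 of 23 alternatives. Its DKO signals were 5.36 and 5.31 at 5 weeks and 6.60, 5.74, 6.99 and 7.09 at 7 months, lowest there in replicate 2. Chrm3, the muscarinic receptor through which acetylcholine is known to raise insulin secretion, was 7.87 to 8.0 in WT and 7.42 and 7.54 in DKO islets at 5 weeks. It fell in DKO against WT islets there by 0.46 ± 0.10 (adjusted p = 0.0493), rose in DKO islets over time by 0.36 ± 0.10 (adjusted p = 0.0433), and was at -0.27 ± 0.083 between genotypes at 7 months (adjusted p = 0.0779).

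The description labels of the arrays also carry a number, 5 or 7, whose meaning no label explains. Within the arrays that bear 5 and those that bear 7, the Gabra4 rise in WT was 1.67 and 2.24, and in DKO islets 2.18 and 1.41. The Chrna3 difference over time was -2.44 and -1.24 in WT and -1.81 and -2.05 in DKO islets. For Gabbr2 in WT it was 0.57 and 0.55. The Gad1 difference between genotypes at 7 months was -1.04 and -0.97. For Chrnb4 the genotype difference was -1.42 and -0.83 at 5 weeks and -0.19 and -1.31 at 7 months. These values kept their direction within both numbers, from 1 or 2 arrays a group. Of the 32 differences of the 8 genes between 2 groups, 7 turned, none of them a called difference. Between genotypes at 5 weeks Gabra4 was -0.12 and 1.14, Gabbr2 0.42 and -0.0095, and Chrna5 -0.39 and 0.094. At 7 months Chrna5 was 0.077 and -0.099, and Gad2 0.12 and -0.092. Over time Chrnb4 in DKO islets was 0.11 and -1.11, and Gad1 in WT was -0.12 and 0.096.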

How the data were processed

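Islet RNA (100 ng per sample) was labelled with biotin by a whole-transcript assay and measured on 14 arrays, per the labels' protocols. The authors deposited log2 signals from RMA, per the submitters' processing notes, with no version stated there. The number of arrays limits the precision. Of 35556 probe sets, 21218 carried 1 gene symbol in the platform annotation, 1881 several and 12457 none. Probe sets with 1 symbol were used, the brightest per gene over all arrays, for 18820 genes, and 18790 symbols were updated by Entrez identifier. A limma model (3.58.1, R 4.3.3) with 1 mean per group over all 14 arrays gave 5 comparisons: the genotypes at each time, the times in each genotype, and the interaction. The p-values were adjusted by Benjamini-Hochberg over all genes, with a threshold of 0.05. The model was also run on simulated data with independent noise and known changes, whose outcome is not given here and bears on no result. Nothing beyond the wording of the labels says that samples are independent cultures or litters, so p-values measure the spread between these samples. Python 3.11.15 and matplotlib 3.10.9 were used for descriptions and plots. The members and gene lists were chosen with earlier results of these data known. The text names every member, the pathway genes past the threshold, and for each member the 3 genes with the highest Pearson correlation over the 14 arrays. For these 3, symbols of the Gm number, Rik, LOC, Mir, Snor, Olfr and Vmn kinds were passed over. Same-numbered replicates did not deviate together, so the replicate number was used only as an alternative. Marker lists held 8 beta, 3 alpha, 4 delta, 3 PP and epsilon, 6 neuronal, 5 Schwann, 9 acinar, 7 stellate and fibroblast, 6 macrophage and 6 endothelial cell genes measured here. Alternatives, of which 9 were other settings and 14 left out an array each, are given in the closing section.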

Additional observations from a re-analysis of the deposited data

Results flagged for a closer look

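In 81 groups of 4 arrays over 27 genes, 3 arrays stood apart from the rest of their group by Dixon's criterion (a gap over 0.829 of the range), and chance alone flags some groups at its 95% level. Gabra4 was lowest in WT replicate 2 at 5 weeks, at 3.85 against 5.00 to 5.06 in the other 3 arrays. The acinar marker mean of that array was also the lowest of its group, at 6.29, and its part in the Gabra4 value was not tested. Gabra4 was highest in WT replicate 1 at 7 months, at 6.73 against 6.67 to 6.68, a gap of under 0.1 in a group whose SD was 0.031. Chrnb4 was highest in WT replicate 1 at 5 weeks, at 5.75 against 5.31 to 5.35, and Chrna3 was also highest there, at 5.80.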

How the results depend on the processing

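Over 23 alternatives, 902 values of the 40 member differences were computed. Of these 832 kept direction and side of the threshold, 25 lost a call, 22 gained one, and 23 turned in direction, none of them a called difference. The Chrna3 differences over time in both genotypes and the Gabra4 rise in WT stayed past the threshold in all 23. The number of the 8 genes past it at 5 weeks was 1 with only the arrays compared (0 to 1 leaving out an array), and at 7 months 0 with only the arrays compared, 2 with dim genes left out and 0 with each array centred on its median (0 to 2 leaving out an array). A count of 1 at 7 months did not always mean Gad1. The gene was Chrna3 instead with a robust prior spread that follows signal, with the description number in the model and with the acinar covariate. It was also Chrna3 without WT replicate 2 or 3 at 7 months, and Chrnb4 without DKO replicate 1 at 7 months. Leaving out an array gave 2 to 4 over time in WT, 2 to 3 in DKO and 0 for the interaction. The cause of these shifts was not tested.

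Among differences that did not pass, the direction turned as follows. With the replicate block the Chrna3 interaction was 0.037. With each array centred, Chrna5 at 7 months was 0.038 and Gad2 over time in DKO 0.013. With quantile normalization repeated, Gabbr1 over time in WT was -0.0055, and with the acinar covariate Gad1 over time in WT was 0.046. Leaving out an array gave the Chrna3 interaction at -0.31 to 0.29, Gabra4 at -0.49 to 0.17 and Gabbr2 at -0.35 to 0.12, Chrna5 at 7 months at -0.055 to 0.034, Gad2 there at -0.025 to 0.058 and Gabbr2 there at -0.0023 to 0.15. Gabbr2 at 5 weeks lay at -0.031 to 0.44, Gad1 there at -0.19 to 0.018, and over time in WT Gabbr1 at -0.0084 to 0.13 and Gad1 at -0.073 to 0.085.

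The replicate block left the counts at 0, 1, 3, 2 and 0 of 8. Same-numbered arrays of different groups correlated at -0.16 to 0.16 and others at -0.15 to 0.19, and 5 of 14 arrays correlated best with their own number. Over all genes the number called ran from 44 to 282 at 5 weeks (187 as reported), 488 to 1681 at 7 months (887), 221 to 570 over time in WT (446), 347 to 2051 in DKO (1424) and 2 to 185 for the interaction (17). With only the arrays compared the interaction was not run, and Gad2 and Chrna5 drop out with dim genes left out. Signals below the array medians limit Gad2, Chrna5, Ly6h, Chrna4, Tlr4, Cdh19, Itgam and Mrc1 and the late values of Chrna3, Gabrg3, Slc18a3 and Prph. They also limit the late DKO values of Chrnb4 and the DKO values of Slc18a3 at 5 weeks. The 2 DKO arrays at 5 weeks limit every comparison they enter.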
